A study of Mus musculus with 4 samples.

Results

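The endothelin system is described here through 7 genes, the ligands Edn1, Edn2 and Edn3, the receptors Ednra and Ednrb, and the converting enzymes Ece1 and Ece2. All probe sets assigned to these genes were read, which gave 14 of the 45037 probe sets on the arrays besides the controls. A probe set is a group of short probes that together report 1 transcript, and the 14 belong to 6 of the genes, among 18193 genes with a probe set. Edn1 and Edn2 have 1 probe set each, Ece2 has 2, Ednrb and Ece1 have 3 each and Edn3 has 4. No probe set is assigned to Ednra in the annotation used, so that Ednra was not analysed here.

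All cells derived from mouse ES cells of strain 129/Ola, the line CAG-GFP EB3, in which the CAG promoter drives GFP, and had been differentiated for 18 days with Activin at 10 ng/mL after embryoid body formation. KSP (kidney specific protein) is a cadherin encoded by Cdh16. On day 18, live GFP-positive cells were sorted with an antibody against KSP into KSP-positive cells (2 arrays) and KSP-negative cells (2 arrays), in 2 independent experiments. Both fractions derive from 1 line, and no undifferentiated or untreated cells were compared. The signals are linear array values, each array scaled to a common 75th percentile, and values under a floor of 12.3 were raised to it for the log2 scale. The sort was on the protein, and the mRNA of Cdh16 did not pass the test. It had scaled signals of 50.5 and 32.6 in KSP-positive cells and of 39.3 and 26.3 in KSP-negative cells, which overlapped (log2 difference 0.34, adjusted p = 0.816 over genes from limma). The probe set was dim, just above the filter on dim signals that tested probe sets had to pass. It passed this filter only through its KSP-positive arrays.

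Endothelins are short vasoactive peptides cut from larger precursors. Furin-type proteases first release an inactive form, called big endothelin, which the membrane metalloproteases encoded by Ece1 and Ece2 cleave to the active peptide. The peptides act on 2 G protein-coupled receptors. The receptor encoded by Ednra is known from vascular smooth muscle and from the mesenchyme of the pharyngeal arches, and the one encoded by Ednrb from endothelium, from the neural crest that forms enteric neurons and melanocytes, and from the collecting duct of the kidney, where it lowers sodium reabsorption.

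Ednrb and Ece1 were the genes with a probe set that differed more than 2-fold between the fractions, and the bases before their starts are shown for this reason. Both stretches are the 250 bases before a RefSeq start on GRCm38.p6, Ednrb at chr14:103843702-103843951 on the minus strand and the most upstream start of Ece1 at chr4:137861987-137862236 on the plus strand. Capitals mark matches, on either strand, to CCAAT (the CCAAT box). The GC box, whose letters are GGGCGG, and the TATA box, whose letters are TATAAA, were searched in the same way.
Ednrb: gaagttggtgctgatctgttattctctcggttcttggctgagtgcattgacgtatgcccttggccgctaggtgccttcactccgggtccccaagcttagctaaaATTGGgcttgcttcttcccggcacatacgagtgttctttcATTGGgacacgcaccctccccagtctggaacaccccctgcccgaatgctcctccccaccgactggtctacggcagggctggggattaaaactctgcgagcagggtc
Ece1: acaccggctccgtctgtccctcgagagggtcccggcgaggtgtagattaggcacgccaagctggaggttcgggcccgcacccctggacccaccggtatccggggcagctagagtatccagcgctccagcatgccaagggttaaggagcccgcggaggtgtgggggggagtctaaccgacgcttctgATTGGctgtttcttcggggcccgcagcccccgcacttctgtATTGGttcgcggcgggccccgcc
Each stretch held 2 matches to CCAAT, all read on the opposite strand as ATTGG, and no match to the other motifs. Windows of other Ece1 starts differed. The one at chr4:137862030-137862279 held 2 matches to GGGCGG beside 2 to CCAAT. The one at chr4:137920543-137920792 held 1 match to GGGCGG, and the one at chr4:137913308-137913557 held no match. No matches overlapped. Among all 32851 windows of this length, 33.8% held CCAAT, 32.7% GGGCGG and 12.4% TATAAA. Of the 10 windows of the 7 endothelin genes, 5 held CCAAT, 3 held GGGCGG and 0 held TATAAA. These windows are not independent, since the Ece1 stretch shown overlaps the one at chr4:137862030-137862279. The same CCAAT matches were counted in both. The Ece1 stretch had 22 CG dinucleotides and a GC content of 66.8%, and the Ednrb stretch 11 CG dinucleotides and 56.8%, beside a median GC content of 52.4% over all windows.

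The comparison of KSP-positive with KSP-negative cells asks which endothelin genes differ between the fractions sorted by the antibody against KSP. The strongest difference was that of the receptor gene Ednrb, which was 3.12-fold higher in KSP-positive cells on its brightest probe set. Ece1 was 2.13-fold higher on its brightest probe set. For the ligand genes Edn1 and Edn3 and the enzyme gene Ece2 the tested probe sets overlapped between the fractions, and Edn2 was separated on a dim probe set.
Of the 14 probe sets, 10 passed the filter on dim signals (a mean log2 signal above 5.14) and were tested. At an adjusted p under 0.05, 0 of the 10 were called, against 0.307% of all 27022 tested probe sets that were higher and 0.296% that were lower in KSP-positive cells. At an unadjusted p under 0.05 there were 2 of the 10, Ednrb and Ece1 on their brightest probe sets, against 13.1% of all tested probe sets. When each gene was represented by its brightest probe set, Ednrb was called among 12849 genes (adjusted p = 0.0442 from limma), where 1.84% of all genes were higher and 1.65% lower. The median log2 difference of the 10 probe sets was 0.26, beside -0.03 over all tested probe sets. The Edn2 probe set passed the filter only through its KSP-positive arrays. Among the other 9, the middle value was 0.07, that of Edn3 1438696_at.

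**Figure D1:**
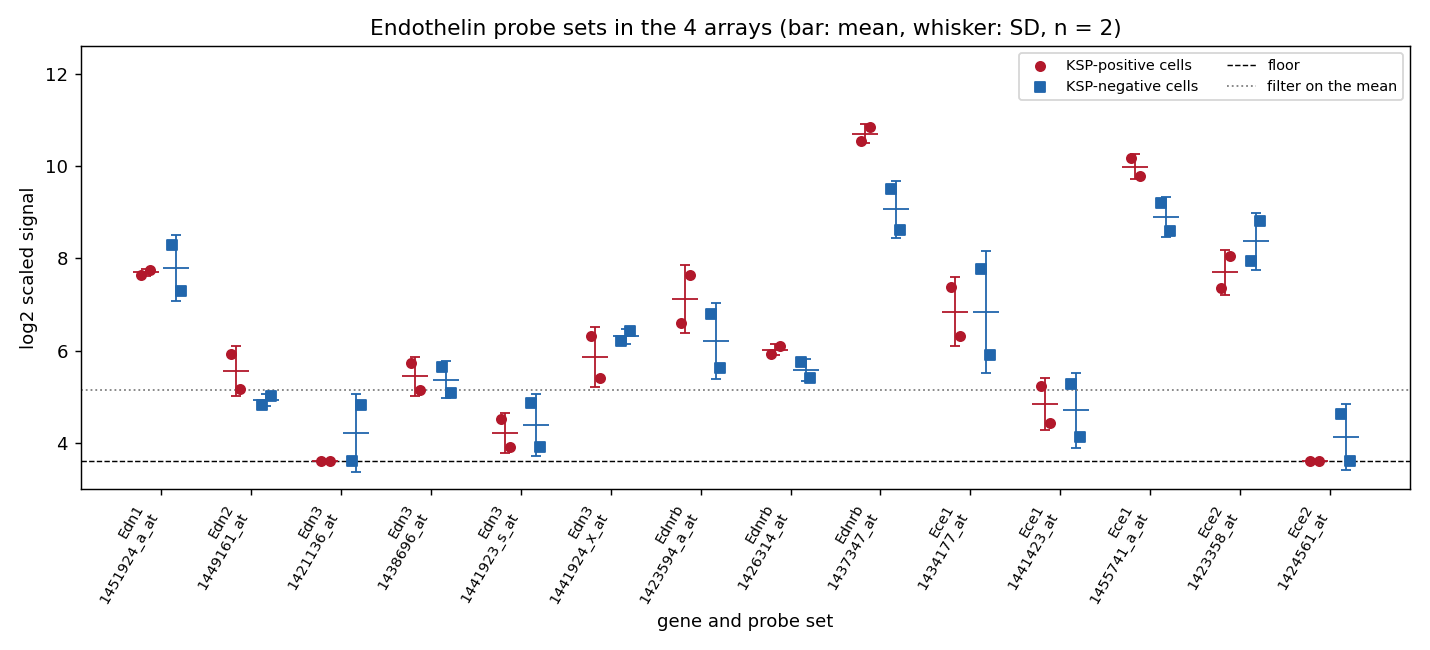
Log2 scaled signal (vertical axis) of the 14 endothelin probe sets (horizontal axis) in KSP-positive cells (circles) and KSP-negative cells (squares), where bars are means and whiskers show the SD over 2 arrays, with a dashed line for the floor and a dotted line for the filter on the mean; levels of different probe sets are not compared. The fractions are furthest apart for Ednrb 1437347_at, and both KSP-positive arrays lie at the floor for Edn3 1421136_at and Ece2 1424561_at.

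Of the receptors, Ednrb was read by 3 probe sets, and all 3 had a higher mean in KSP-positive cells. Probe set 1437347_at had scaled signals of 1499 and 1848 in KSP-positive cells, against 721 and 394 in KSP-negative cells. Both KSP-positive arrays lay above both KSP-negative arrays, and the lower KSP-positive array was more than 2-fold above the higher KSP-negative one. The log2 signal averaged 10.70 ± 0.21 in KSP-positive cells and 9.06 ± 0.62 in KSP-negative cells (SD, n = 2 each). The log2 difference of 1.64 had a standard error of 0.39 and a 95% interval from 0.75 to 2.53 (adjusted p = 0.116 from limma over all tested probe sets). Of the 27022 tested probe sets, 576 (2.13%) had a larger difference in this direction.
Probe set 1426314_at of Ednrb had signals of 61.2 and 69.1 in KSP-positive cells, against 53.8 and 42.8 in KSP-negative cells. The fractions did not overlap, but the distance was small, with a log2 difference of 0.44 (95% interval -0.66 to 1.54, adjusted p = 0.765). Probe set 1423594_a_at, whose suffix marks probes shared by transcript variants of a gene, had signals of 97.2 and 201 in KSP-positive cells, against 111 and 49.7 in KSP-negative cells. Here the fractions overlapped, since the lower KSP-positive array lay under the higher KSP-negative array (log2 difference 0.91, 95% interval -0.36 to 2.19, adjusted p = 0.544). With the mean of the 3 probe sets, the log2 difference of Ednrb was 0.998 (adjusted p = 0.216 over genes).
The call of Ednrb on 1437347_at varied with single arrays. Without KSP-negative replicate 1 the difference was 2.08 (adjusted p = 0.0448), and without KSP-negative replicate 2 it was 1.21 (adjusted p = 0.440). The actin 3′/5′ signal ratio, a measure of RNA integrity that is higher in shortened RNA, was 2.92 and 1.80 in KSP-positive replicates 1 and 2, and 1.79 and 3.55 in KSP-negative replicates 1 and 2. In both fractions all 3 Ednrb probe sets were lower in the array with the higher ratio. The part of RNA quality in these values was not tested.

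Ece1, whose product makes endothelin 1 from its big form, was read by 3 probe sets that differed among themselves. Probe set 1455741_a_at had scaled signals of 1162 and 887 in KSP-positive cells, against 590 and 386 in KSP-negative cells. Each KSP-positive array lay above each KSP-negative array. The log2 signal averaged 9.99 ± 0.27 in KSP-positive cells and 8.90 ± 0.43 in KSP-negative cells (SD, n = 2 each), a difference of 1.09 with a standard error of 0.37 (95% interval 0.24 to 1.94, adjusted p = 0.256 from limma). A larger difference in this direction was found in 6.17% of the tested probe sets. With 1 probe set per gene the adjusted p was 0.145.
The other Ece1 probe sets did not separate the fractions. Probe set 1434177_at had signals of 167 and 79.5 in KSP-positive cells, against 219 and 59.7 in KSP-negative cells, so that the KSP-positive values lay inside the KSP-negative range. Its log2 difference was 0.01, with a 95% interval from -1.49 to 1.51 that leaves room for a 2-fold change in either direction (adjusted p = 0.999). Probe set 1441423_at, under the filter and not tested, had signals of 37.9 and 21.8 in KSP-positive cells, against 39.0 and 17.4 in KSP-negative cells, again with the KSP-positive values inside. The mean of the 2 tested Ece1 probe sets had a log2 difference of 0.55 (adjusted p = 0.580 over genes).

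Ece2, which encodes the second converting enzyme, an enzyme of acidic compartments that is best known from neural tissue, had the lower mean in KSP-positive cells. Probe set 1423358_at had signals of 163 and 264 in KSP-positive cells, against 244 and 446 in KSP-negative cells. The fractions overlapped, because KSP-positive replicate 2 lay slightly above KSP-negative replicate 1. The log2 difference was -0.67 (95% interval -1.69 to 0.36, adjusted p = 0.587). The dim probe set 1424561_at was at the floor of 12.3 in 3 arrays, with a signal of 24.8 only in KSP-negative replicate 1, and was not tested.

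Edn1 encodes endothelin 1, the main endothelin of blood vessels and of the collecting duct. Its only probe set, 1451924_a_at, had signals of 199 and 215 in KSP-positive cells, against 312 and 156 in KSP-negative cells. The KSP-positive arrays were close to each other and lay between the KSP-negative arrays. The log2 difference was -0.09 (95% interval -1.10 to 0.92, adjusted p = 0.963), and it was 0.41 without KSP-negative replicate 1.
Edn2 encodes endothelin 2. Its probe set 1449161_at had signals of 61.3 and 36.1 in KSP-positive cells, against 28.5 and 32.6 in KSP-negative cells. The fractions did not overlap, but KSP-positive replicate 2 stood close to the KSP-negative arrays, and the mean lay only just above the filter. The log2 difference was 0.63 (95% interval -0.64 to 1.89, adjusted p = 0.696).
Edn3, the ligand of Ednrb in the neural crest, had 2 of its 4 probe sets under the filter. Probe set 1438696_at had signals of 53.3 and 35.5 in KSP-positive cells, against 50.4 and 34.0 in KSP-negative cells, nearly the same pair of values in both fractions (log2 difference 0.07, adjusted p = 0.977). Probe set 1441924_x_at, whose suffix warns of probes that can bind other transcripts, had signals of 80.2 and 42.4 in KSP-positive cells, against 73.4 and 85.7 in KSP-negative cells. These overlapped (log2 difference -0.44, adjusted p = 0.775). Below the filter, 1441923_s_at had signals of 23.0 and 15.0 in KSP-positive cells, against 29.0 and 15.1 in KSP-negative cells. Probe set 1421136_at was under the floor in both KSP-positive arrays and in KSP-negative replicate 1, and had a signal of 28.3 in KSP-negative replicate 2. The size of its difference, -0.60 on the log2 scale, depends on the floor and was -2.53 without one.

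Over the whole system, 4 of the 10 tested probe sets had both KSP-positive arrays above both KSP-negative arrays (1437347_at and 1426314_at of Ednrb, 1455741_a_at of Ece1 and the probe set of Edn2), against 20.9% of all tested probe sets. The Edn2 probe set passed the filter only through its KSP-positive arrays, and of the other 9, which lay above it in both fractions, 3 had this order. None of the 10, that is 0, had the reverse order, against 23.2% of all tested probe sets. Of the 14, 2 exceeded a 2-fold difference upwards and 0 downwards, against 6.21% upwards and 5.81% downwards among all 45037 probe sets. Ece1 1455741_a_at was close to the limit, with a log2 difference of 0.90 when KSP-positive replicate 1 was left out, and of 0.78 without KSP-negative replicate 2. Probe sets of 1 gene share their target and are not independent of each other.

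**Figure D2:**
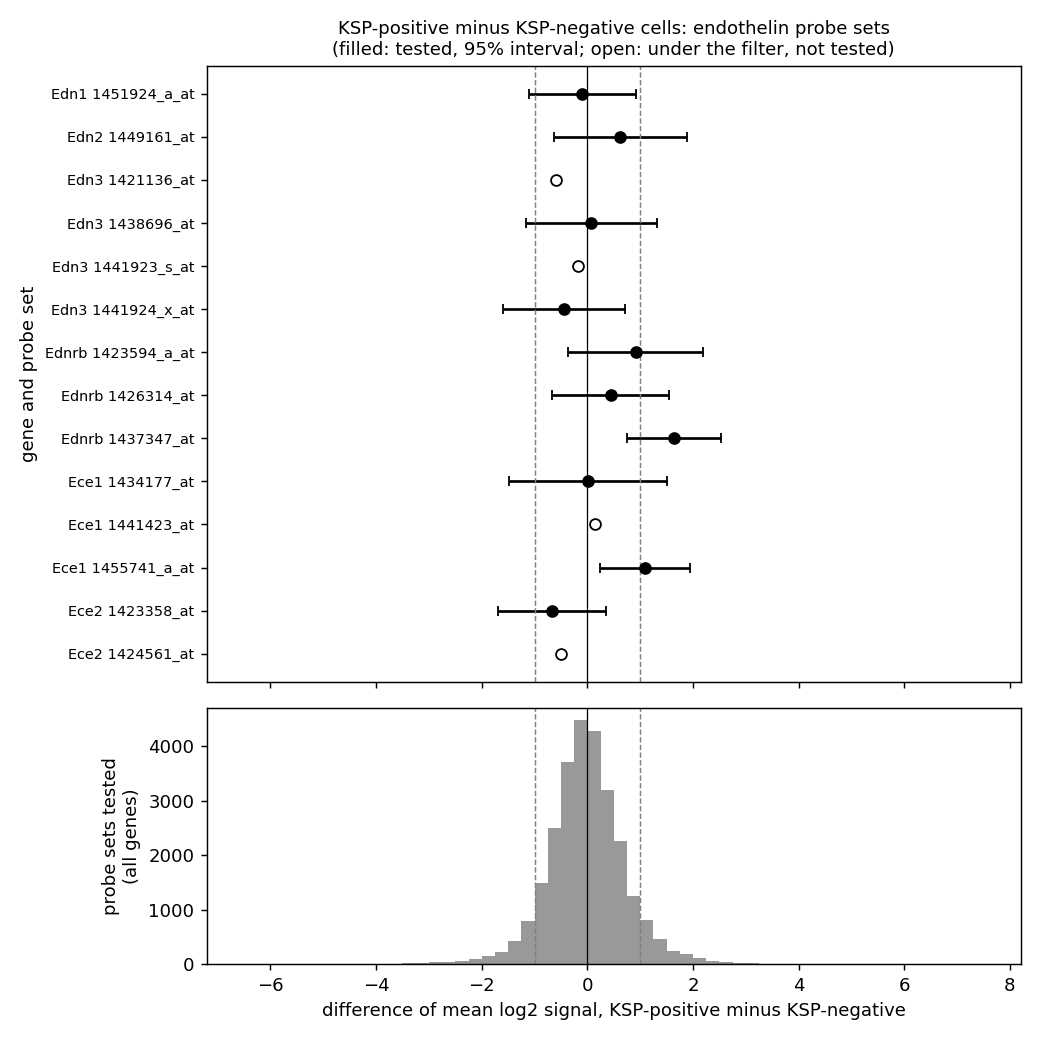
Upper panel, mean log2 signal in KSP-positive minus that in KSP-negative cells (horizontal axis, 2 arrays per fraction) for the 14 endothelin probe sets (vertical axis), with 95% intervals for the 10 tested and open points for the 4 under the filter; lower panel, the number of tested probe sets of all genes (vertical axis) at each difference. The intervals of Ednrb 1437347_at and Ece1 1455741_a_at lie above 0, and those of the other 8 tested probe sets include it.

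The other genes of the pathway, taken as lists with 1 probe set per gene, held 0 genes that passed the test. Of all 12849 genes, 1.84% were called higher and 1.65% lower, so that few calls would be met in lists of this size. Among the enzymes that process or break down endothelins, 0 of 6 tested genes passed the test (4 of 10 lay under the filter), with a median log2 difference of 0.19 beside -0.03 over all genes. Pcsk5, a proprotein convertase, had signals of 1816 and 1768 in KSP-positive cells, against 914 and 959 in KSP-negative cells (log2 difference 0.94, adjusted p = 0.155). Ctsa, a lysosomal carboxypeptidase that trims endothelin 1, had 2314 and 1930 in KSP-positive cells, against 1101 and 1069 in KSP-negative cells (log2 difference 0.96, adjusted p = 0.147). Neither pair of fractions overlapped, which the choice of these genes by smallest p favours. Mme, the endothelin-degrading peptidase neprilysin, was at a log2 difference of -0.66 (adjusted p = 0.395), and Pcsk7, another convertase, at 0.36 (adjusted p = 0.688).
Of 20 tested G proteins and effectors that act behind endothelin receptors, 0 passed the test, 15 had a higher and 5 a lower mean in KSP-positive cells, and the median log2 difference was 0.23. Those with the smallest p were Plcb1, a phospholipase C (log2 difference 0.95, adjusted p = 0.195), Itpr2, a receptor for inositol trisphosphate (1.22, adjusted p = 0.236), Gnaq, the G protein alpha chain that activates phospholipase C (0.72, adjusted p = 0.285), and Prkca, a protein kinase C (0.74, adjusted p = 0.322). In each of these 4 genes both KSP-positive arrays lay above both KSP-negative arrays, an order that the choice by smallest p favours. Without KSP-negative replicate 1, Rgs5, a regulator of G protein signalling that pericytes also express, was called (1.59, adjusted p = 0.0498, against 0.89 and 0.340 with all arrays).
Of 9 transcription factors that act on Edn1, 0 passed, with a median of -0.04. Gata2, which drives Edn1 in endothelium, was at a log2 difference of -0.77 (adjusted p = 0.316), Hif1a, the hypoxia factor, at 0.44 (adjusted p = 0.542), and the Smad factors Smad4 and Smad3 were at -0.40 and -0.20 (adjusted p = 0.546 and 0.813). Among pharyngeal arch genes downstream of Edn1, 0 of 4 tested passed and 6 lay under the filter. Hand2, a transcription factor of the arches and of the heart, had signals of 2523 and 1940 in KSP-positive cells, against 1173 and 1038 in KSP-negative cells (log2 difference 1.004, adjusted p = 0.139). Mef2c, Msx1 and Hand1, further transcription factors of the arches, had log2 differences of 0.62, -0.49 and -0.17.

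Lists of the cell types that use endothelins were read beside these values. For these and the later lists, the shares over all genes were again 1.84% called higher and 1.65% called lower. Of 15 tested genes of the enteric neural crest and of melanocytes, 2 fell and 13 did not pass. Erbb3, a neuregulin receptor of glia, and Foxd3, a neural crest factor that pluripotent cells also use, had log2 differences of -2.11 and -2.74 (adjusted p = 0.0127 and 0.0313). Foxd3 lay under the filter in KSP-positive cells and was tested only through its KSP-negative arrays. Without KSP-negative replicate 2 the adjusted p of Erbb3 and Foxd3 were 0.0785 and 0.229, and 0 genes of this list were called. Zeb2, mutated in a human syndrome with missing enteric neurons, was at a difference of 1.59 (adjusted p = 0.0688), and it was called when KSP-positive replicate 2 (2.10, adjusted p = 0.00790) or KSP-negative replicate 1 (adjusted p = 0.0473) was left out. Mitf, the melanocyte factor, was at 1.21 (adjusted p = 0.149). Sox10, which defines the migrating neural crest, was at -0.59.
Of 12 endothelial genes, 0 passed with all arrays, and 2 were called lower without KSP-positive replicate 2 (Cldn5, a tight junction gene, at -2.14 and Pecam1 at -2.61, adjusted p = 0.00783 and 0.0192). Flt1, Eng, Tek and Pecam1, receptors and adhesion molecules of endothelial cells, had log2 differences of -0.80, 0.83, 0.86 and -0.99. Pecam1 was at the floor in KSP-positive replicate 1, and was at 0.63 without that array. The summed signal of the list was 2070 and 5791 in KSP-positive cells, against 4063 and 2346 in KSP-negative cells, and the ranges of the fractions overlapped. Its median was 0.27 with all arrays, 1.13 when KSP-positive replicate 1 was left out and -0.74 when KSP-positive replicate 2 was.
Of 10 tested smooth muscle and pericyte genes, Pdgfrb rose and 9 did not pass. Pdgfrb, the pericyte receptor for PDGF-B, had signals of 3648 and 3384 in KSP-positive cells, against 1049 and 964 in KSP-negative cells (log2 difference 1.81, adjusted p = 0.0147). Rgs5, Mcam and Tagln had differences of 0.89, 0.93 and 0.55. Of the 10, 8 had a higher and 2 a lower mean in KSP-positive cells. The lower ones were Cnn1 (-1.06) and Notch3 (-0.23). Cnn1 was at -2.49 without KSP-positive replicate 2 and at 0.36 without KSP-positive replicate 1. Of 13 collecting duct genes 10 lay under the filter, 4 with a higher and 6 with a lower mean in KSP-positive cells. Of these 10, 1 (Scnn1b) was higher without overlap of the fractions, and 2 (Aqp2 and Calb1) were lower without overlap. Among them were Aqp2, the water channel that defines principal cells, with signals of 26.4 and 28.2 in KSP-positive cells, against 37.5 and 28.6 in KSP-negative cells, and Scnn1b, a chain of the epithelial sodium channel, with 77.3 and 32.7 in KSP-positive cells, against 4.69 and 6.52, both under the floor, in KSP-negative cells. Of the 3 tested, Hsd11b2, the enzyme that protects the mineralocorticoid receptor from glucocorticoids, had signals of 2160 and 1373 in KSP-positive cells, against 625 and 465 in KSP-negative cells (log2 difference 1.68, adjusted p = 0.0350). Scnn1a and Aqp3 had differences of -0.09 and -1.07. Without KSP-negative replicate 2 the adjusted p of Pdgfrb was 0.0637 and that of Hsd11b2 0.157, and without KSP-positive replicate 1 that of Hsd11b2 was 0.205.

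Of the 11 lists, those of macrophage and pluripotency markers had the medians farthest from 0. Of 14 macrophage genes 12 were tested and rose (median log2 difference 3.58), 3 of them (C1qa, C1qc and Fcgr1) tested only through their KSP-positive arrays. The other 9 rose with a median of 2.84. Calls numbered 10 when KSP-positive replicate 1 was left out, and 9 without KSP-negative replicate 2. The summed signal of the 12 was 24525 and 11803 in KSP-positive cells, against 1973 and 1690 in KSP-negative cells. Lyz2, the myeloid lysozyme, was 20.2-fold higher, and for C1qa, a complement gene at the floor in both KSP-negative arrays, the fold was at least 45.3. The 9 pluripotency genes fell (median -3.68), among them Pou5f1, a core factor of ES cells (-4.33), and 6 were called without KSP-negative replicate 2. Nanog, Fgf4 and Utf1 were tested only through their KSP-negative arrays, and the other 6 had a median of -3.59. The summed signal of the 9 was 1315 and 1625 in KSP-positive cells, against 11683 and 23349 in KSP-negative cells. Between the KSP-positive arrays, the macrophage sum was higher in replicate 1, whereas Ednrb 1437347_at was higher in replicate 2 and Ece1 1455741_a_at in replicate 1. Of 6 tested epithelial genes, Epcam and Cdh1, adhesion molecules of epithelia and of pluripotent cells, fell, with log2 differences of -2.98 and -2.41 (adjusted p = 0.00357 and 0.00848), and 4 did not pass. The part of these cell types in the endothelin values was not tested. In sorted bulk samples, fewer cells of a type and less RNA per cell cannot be told apart.

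**Figure D3:**
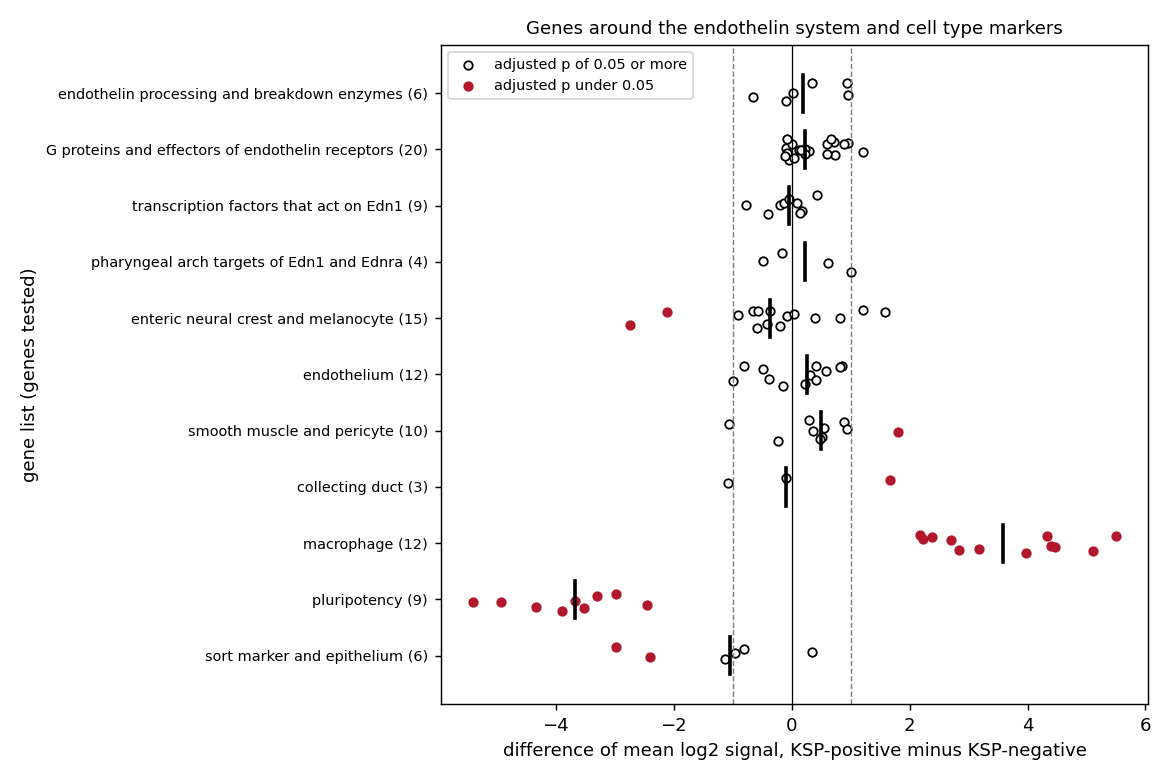
Mean log2 signal in KSP-positive minus that in KSP-negative cells (horizontal axis, 2 arrays per fraction) for the tested genes of 11 lists (vertical axis, with gene numbers), with points filled where the adjusted p from limma was under 0.05, with black bars for medians and dashed lines at a 2-fold difference. The lists of endothelin enzymes, effectors and Edn1 factors have medians of 0.19, 0.23 and -0.04 and no filled point. Macrophage genes lie to the right and pluripotency genes to the left.

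The genes whose pattern was nearest to each endothelin gene were found by the Euclidean distance between log2 signals, each taken relative to its own mean, over the 4 arrays. With so few arrays many genes lie near any pattern, and the distances are a description. For Ednrb the nearest were Nrn1, Tac2 and Cebpd (distances 0.11, 0.12 and 0.17), which had log2 differences of 1.61, 1.56 and 1.73, and 18 genes lay within a distance of 0.3. Nrn1 encodes neuritin, Tac2 the peptide precursor of neurokinin B and Cebpd a C/EBP transcription factor.
For Ece1 the nearest were Popdc3, 4930402H24Rik and Pitx1 (distances 0.07, 0.08 and 0.11), with 120 genes within 0.3. For Edn1 they were Rilp, Rnf19b and Cers6, with 59 genes within 0.3, and their values, like those of Edn1, were highest in KSP-negative replicate 1 and lowest in KSP-negative replicate 2. For Edn2 they were Was, Naca and 2410006H16Rik, with 192 genes within 0.3, for Edn3 Sftpc, Ccdc177 and Mm2pr, with 96, and for Ece2 Limk1, 2610318N02Rik and Qtrt1, with 276. The pattern of Ednrb thus had the fewest near neighbours of the 6 genes, but it also had the largest difference. Only 2.13% of tested probe sets had a larger one in this direction. The counts did not follow the size of the difference throughout. Edn1, with a log2 difference of -0.09, had 59 near genes, fewer than the 120 of Ece1 at 1.09. Whether the count of Ednrb is a trait apart from its difference was not tested.

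**Figure D4:**
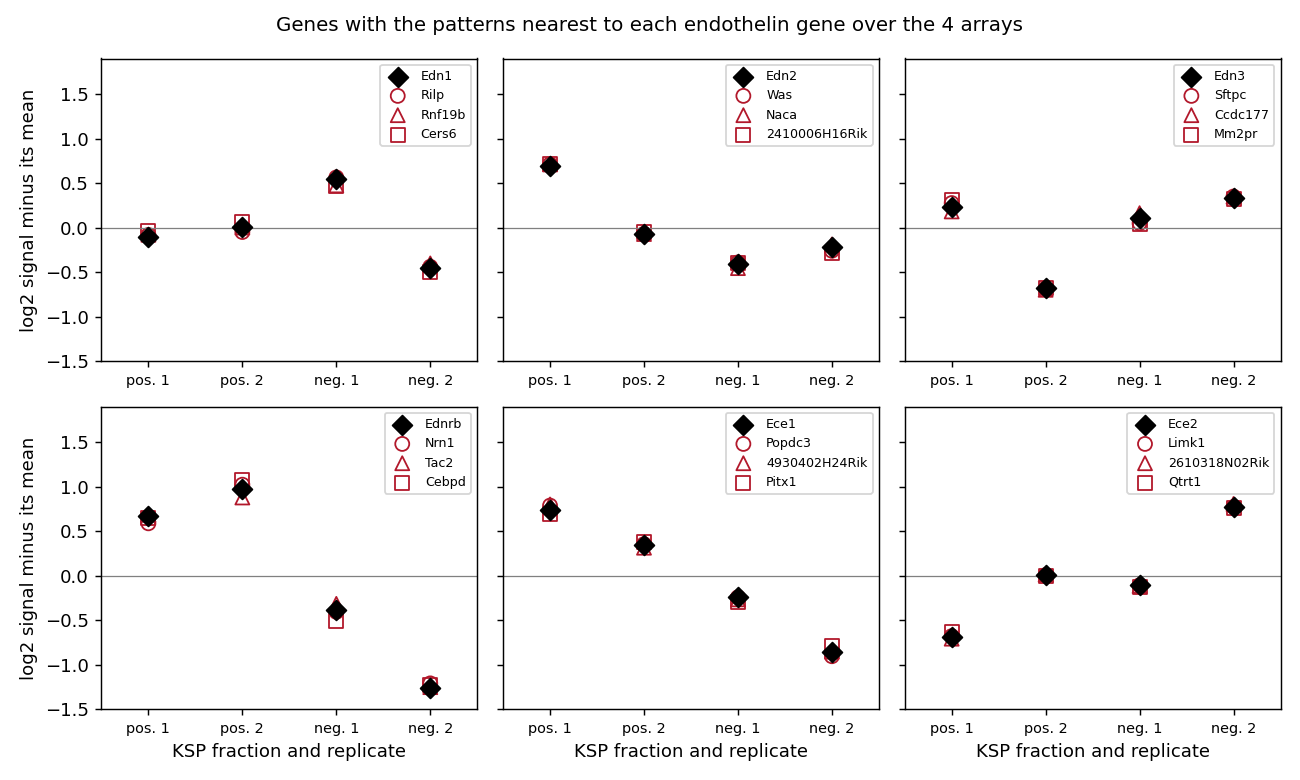
Log2 signal minus its mean over the arrays (vertical axis) in the KSP-positive and KSP-negative arrays (horizontal axis, fraction and replicate) for the brightest probe set of each endothelin gene (diamonds) and the 3 nearest genes (open symbols). Ednrb and Ece1 lie above 0 in both KSP-positive arrays and below 0 in both KSP-negative arrays, whereas Edn1 is spread widest between the KSP-negative arrays.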

How the data were processed

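RNA from KSP-positive and KSP-negative cells, 2 samples each, had been labelled with biotin and hybridized to Affymetrix mouse genome arrays. The authors deposited linear signal intensities per probe set, made with MAS5 as the submitters' processing notes name it. How GeneSpring standardized them is not given further in the sources used here.

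Signals were scaled so that every array had a 75th percentile of 281, raised to the 20th percentile over the table (12.3) where lower, and taken as log2. The 27022 probe sets whose mean exceeded the 40th percentile were tested with limma 3.58.1 in R 4.3.3 (empirical Bayes with an intensity trend, Benjamini-Hochberg adjustment). A second fit, also used for the gene lists, took the brightest tested probe set of each of 12849 genes. Genes came from the platform annotation, updated by gene identifier, with 34945 probe sets on 1 gene, 932 on several and 9160 on none. Precision is limited by the few arrays, and exact permutation tests could not reach a p under 0.05. The fit was tested on simulated data of 27022 probe sets, 200 of them changed. It recovered 0.2% of these at a log2 difference of 1, 10.6% at 2, 57.6% at 3 and 79% at 4. A difference that did not pass is therefore not evidence of equal levels.

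Text names cover every member probe set, Cdh16, up to 4 genes per list by smallest p, and the 3 genes nearest to each member. Sox10, Aqp2, Scnn1b, Calb1, Cldn5, Cnn1, Notch3 and, among the effectors, Rgs5 were named after their values were seen. Members and lists were chosen with earlier results of these data known. Alternatives were other scalings, floors, filters, fit units and variance models, a replicate block, the methods' t-test, and leaving out each array. Columns of every sample were used. Figures were drawn with matplotlib 3.10.9.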

Additional observations from a re-analysis of the deposited data

How the results depend on the processing

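Under 16 settings besides the one reported, 190 of 208 values of single probe sets kept their direction, 13 turned and 5 became 0 at the floor. Settings that changed only the filter, the variance model or the test left each difference as it was, as did 1 probe set per gene. The values under these settings could not turn, so that the 190 overstates how stable the directions were. The number of endothelin probe sets past the test was 0 in the fit reported, and 1 (Ednrb 1437347_at) with 1 probe set per gene, under the replicate block, and without KSP-negative replicate 1, so that it ran from 0 to 1 over the arrays left out in turn. The difference of this probe set was 1.64 with 1 probe set per gene and under the replicate block (adjusted p = 0.0442 and 0.0166), and 1.21 to 2.08 over the arrays left out. No source says that arrays of 1 number came from 1 experiment. Array 1 minus array 2 of each fraction had a correlation of 0.306 between the fractions across tested probe sets, which are not independent. Over all probe sets the block called 851 higher and 779 lower, against 83 and 80 without it. It changed no other endothelin call.

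The number of probe sets over 2-fold was 1 with unscaled signals, 0 of 6 genes when probe sets were averaged by gene, and 2 to 5 over the arrays left out (3 higher and 1 lower when KSP-positive replicate 2 was left out, 3 higher and 2 lower without KSP-negative replicate 1, and 1 each way without KSP-negative replicate 2). With unscaled signals, Edn3 1438696_at and Ece1 1434177_at had differences of -0.019 and -0.082. Over the arrays left out, the difference ran from -0.22 to 0.36 for Edn3 1438696_at, from -0.93 to 0.95 for Ece1 1434177_at, from -0.90 to 0.015 for Edn3 1441924_x_at, from -0.59 to 0.41 for Edn1, and, for probe sets under the filter, from -0.64 to 0.30 for Edn3 1441923_s_at and from -0.44 to 0.72 for Ece1 1441423_at, which was at -0.021 under the higher floor. These 6 are the probe sets whose direction turned, and 0 of them were called under any setting tried. Ece1 1455741_a_at fell short of 2-fold with unscaled signals (0.999).

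Over all probe sets, 181 were called higher and 241 lower with unscaled signals, 45 and 49 under the higher floor, 29 and 23 when the intensity trend was left out, and 8 and 3 (without KSP-negative replicate 2) to 312 and 374 (without KSP-positive replicate 2) over the arrays left out. Without the filter limma called 0 of 45037. The methods' t-test called 0 after Benjamini-Hochberg adjustment, and 1106 higher and 1105 lower unadjusted, of which 0 were endothelin probe sets. The cause was not tested. Counts over features above the filter in both fractions were added after seeing the data.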
